A study of Mus musculus with 13 samples.

Results

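The RNA-seq levels of 7 mouse genes that handle acyl-CoA and bile acids in the peroxisome were followed in embryonic stem (ES) cells treated with PhenDC3. They are Baat, Slc27a2, Hsd17b4, Scp2, Amacr, Abcd3 and Acaa1a, and they were found by symbol among the 24079 genes of the raw count table. Baat was chosen by its difference between the conditions, the largest rise with PhenDC3, and Slc27a2 by its fall, so this difference is given for both as a description, with no test. The other 5 genes were added for their place in the same pathway. All 7 passed the filter on low counts, Baat through its PhenDC3 libraries.

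The cells were CGR8, a mouse ES cell line. Control cells were kept for 48 h in 0.5% DMSO, and PhenDC3 cells for 48 h in 10 µM PhenDC3 with the same 0.5% DMSO. PhenDC3 is a small molecule that binds and stabilizes G-quadruplexes (G4), the 4-stranded structures that G-rich DNA can fold into. RNA-seq had 3 replicates of each condition. Sequencing of short nascent strands (SNS-seq), which maps replication origins, had 3 control and 2 PhenDC3 replicates. RNase-treated SNS-seq libraries, 1 per condition, were made as controls for the peak calls and were not analysed here. The labels do not say whether the RNA replicates came from separate cultures, so the p-values measure the spread between these libraries, which may be technical.

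Peroxisomes shorten very long-chain and branched fatty acids, and in the liver they also trim the side chain of bile acid precursors. A substrate is activated to its CoA ester, brought across the membrane by an ABC transporter, brought to the right stereoisomer by a racemase, and then oxidized, hydrated, dehydrogenated and cleaved by a thiolase. In the last step of bile acid synthesis the bile acid is joined to taurine or glycine. Slc27a2 encodes a very long-chain acyl-CoA synthetase, Abcd3 the transporter PMP70, Amacr the racemase, Hsd17b4 the D-bifunctional protein, Acaa1a and Scp2 thiolases (Scp2 also a sterol carrier protein), and Baat the enzyme that joins bile acids to amino acids.

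The 6 RNA-seq libraries held between 22232014 and 29486502 counts. The 45S pre-ribosomal RNA Rn45s took 2.55% to 5.70% of the counts in the controls, whereas no gene took more than 1.43% in a PhenDC3 library. Of 13972 genes tested, 18.0% were called higher and 18.7% lower with PhenDC3 (edgeR quasi-likelihood test, adjusted p of at most 0.05), and 25.0% (higher) and 25.6% (lower) had no overlap between the conditions. The 10 markers of ES cells were detected in every library and summed to between 7929 and 9780 in normalized counts per 1000000 (CPM). Of these, 3 were called higher and 4 lower with PhenDC3, from Nanog (1.22 as log2 fold change) to Utf1 (-2.02), and their part in the levels given below was not tested. Levels below are CPM scaled by relative log expression, and fold changes are log2 values of PhenDC3 over control.

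Baat was close to silent in control cells and clearly present with PhenDC3. The 3 control libraries held 2, 1 and 0 reads, and the 3 PhenDC3 libraries 161, 227 and 118. As levels, these were 0.0724, 0.0456 and 0 CPM in control and 5.59, 9.49 and 4.28 CPM with PhenDC3. Every PhenDC3 library lay above every control library, and the PhenDC3 libraries differed among themselves more than those of any other of the 7 genes relative to their mean (6.45 ± 2.71 CPM, SD, n = 3). The absence of reads in control replicate 3 allows a level of up to 0.130 CPM, the level of 3 counts. This limit covers counting error only. Summed over libraries, 506 reads against 3 gave a ratio of 153. That ratio is a description, since Baat was chosen by these reads, and it rests on very few control reads. The fitted log2 fold change of 7.13 depends on the small count added to the controls. It was the largest of 12480 tested genes with a mean of at least 1 CPM, ahead of Bhmt at 4.95.

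Baat lies on chromosome 4 (49489416 to 49507915, minus strand, GRCm38.p6). Its neighbours in the count table did not follow it. Mrpl50, a mitochondrial ribosomal protein gene 4681 bp beyond its start, had 106, 89.4 and 91.0 CPM in control and 76.0, 71.9 and 76.5 CPM with PhenDC3, and fell by 0.35 ± 0.11 (SE, edgeR adjusted p = 0.0329). Acnat1, an acyl-CoA N-acyltransferase gene related to Baat and 8100 bp beyond its end, held 13, 10 and 1 reads in control and 7, 12 and 14 with PhenDC3. Its levels overlapped between the conditions (log2 fold change 0.33 ± 0.65, adjusted p = 0.712). The related Acnat2 had no read in any library. Among tested genes with a mean of at least 1 CPM, the log2 levels most like those of Baat over the 6 libraries were those of Cd81 (Pearson r = 0.999), Atg16l2 (0.999) and Sirpa (0.999), and with 6 libraries in 2 conditions many genes that differ between the conditions come close to such values.

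A bulk RNA level cannot tell fewer cells of a type from less RNA per cell. Of 12 markers of hepatocytes, the cells best known for Baat, 10 were too low to be tested, and Alb and Cyp3a11 had no read in any library. The 12 summed to 6.12 to 8.30 CPM in control and to 4.07 to 4.56 CPM with PhenDC3. Of 11 markers of visceral endoderm, an extraembryonic layer, 4 of the 7 tested rose (Foxa2, Sox17, Gata4 and Gata6), and their log2 fold changes lay between 0.85 and 1.44, beside 18.0% of all tested genes that were called higher. The other 3 did not pass, with log2 fold changes of -1.54 for Amn (adjusted p = 0.0557), -0.21 for Cubn and 0.21 for Dab2. The 11 summed to 64.1 to 176 CPM in control and to 97.4 to 210 CPM with PhenDC3, while Afp, Ttr and Apoa1 stayed at 8 reads or fewer in every library. Of 8 fibroblast markers, 1 rose (Pdgfra, 0.90) and 1 fell (Thy1, -1.31) among 4 tested. The 8 summed to 12.6 to 22.0 CPM in control and to 23.0 to 25.6 CPM with PhenDC3. Pdgfra made up most of this sum in every library, with 15.1, 9.62 and 6.70 CPM in control and 21.65, 19.7 and 17.6 CPM with PhenDC3. Dcn and Lum had no read. The part of these cells in the level of Baat was not tested.

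Slc27a2 moved the other way. The control libraries had 645, 512 and 565 reads and the PhenDC3 libraries 127, 73 and 101, or 23.4, 23.3 and 24.4 CPM against 4.41, 3.05 and 3.67 CPM. The control libraries were nearly equal (23.7 ± 0.626 CPM), and all lay far above the PhenDC3 libraries (3.71 ± 0.677 CPM). The log2 fold change was -2.67 ± 0.16 (SE), so that PhenDC3 cells kept 0.157 of the control level. Among the 12480 genes with a mean of at least 1 CPM, 53 had a larger fall.

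The gene lies on chromosome 2 (126553024 to 126588243, plus strand), and the nearest gene of the table beyond its end, Hdc, went the opposite way. Hdc, which makes histamine from histidine, had 0.977, 1.09 and 1.21 CPM in control and 2.57, 2.51 and 5.16 CPM with PhenDC3, and rose by 1.64 ± 0.34 (adjusted p = 0.00571). On the other side, 52354 bp away, Atp8b4 had 3 reads in all, which came from PhenDC3 libraries. The genes whose log2 levels were most like those of Slc27a2 were Dcps (Pearson r = 0.999), Akr1b8 (0.999) and Ccne1 (0.999), again over 6 libraries.

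The promoter of Slc27a2 is shown because SNS-seq peaks of control replicates 1 and 2 and of PhenDC3 replicate 1 lay over it. These are the 250 bases before the RefSeq start (chr2:126552774-126553023, plus strand, GRCm38.p6, intergenic), 64.0% of them G or C, with runs of at least 3 G or 3 C in capitals.
Slc27a2 promoter: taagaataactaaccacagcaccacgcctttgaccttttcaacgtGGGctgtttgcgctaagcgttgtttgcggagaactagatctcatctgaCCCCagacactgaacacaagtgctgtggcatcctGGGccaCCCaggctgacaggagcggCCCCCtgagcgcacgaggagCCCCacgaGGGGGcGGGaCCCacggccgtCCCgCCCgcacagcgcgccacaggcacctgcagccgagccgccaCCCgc
It has 4 runs of G and 8 runs of C, but no stretch of 4 runs of the same base with gaps of 1 to 7 bases. That motif, searched on both strands with overlapping matches joined, is used below as a predicted G4, and it was found in 18.6% of 32851 RefSeq promoters of 300 bases. Of the 7 genes, Slc27a2, Abcd3, Scp2 and Acaa1a have promoters in that set, with 5 entries in all, of which 1, at Acaa1a, holds the motif.

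**Figure D1:**
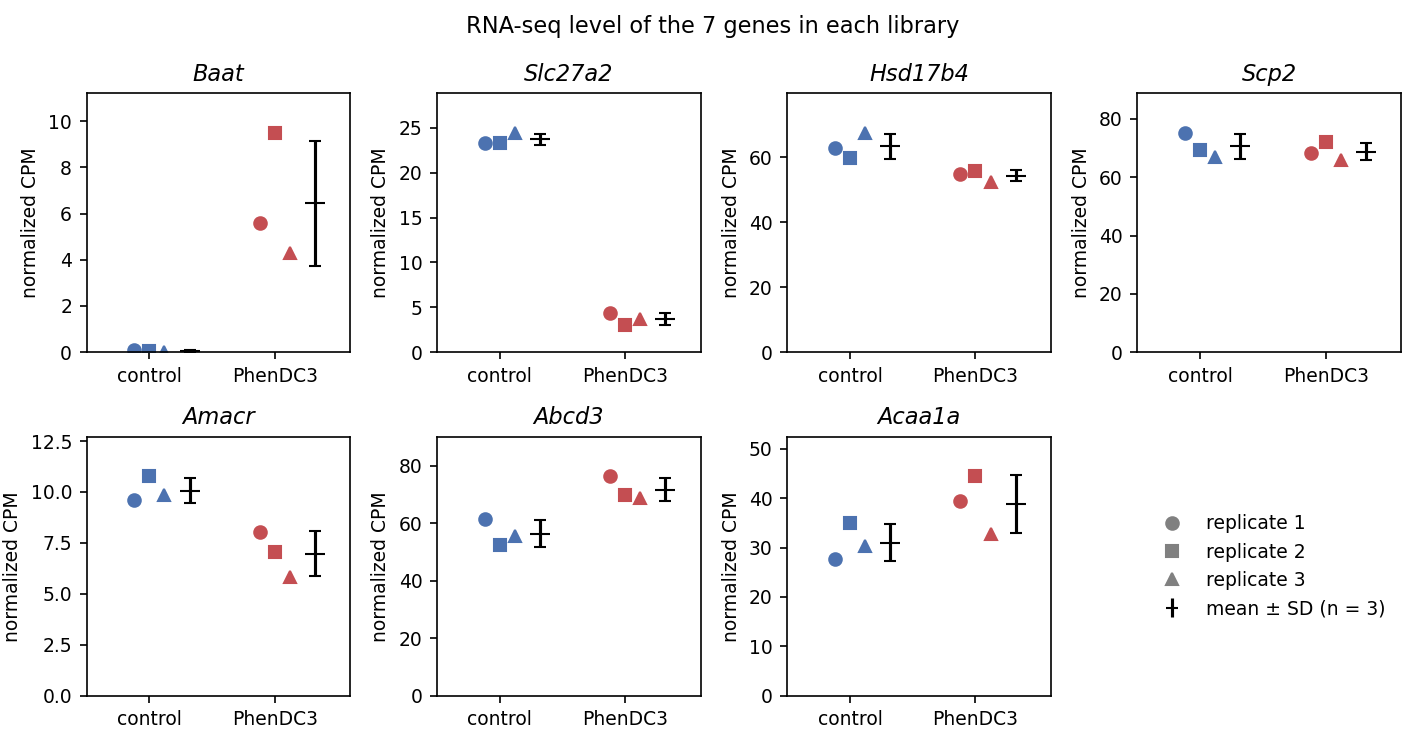
Normalized CPM (linear axis from 0, own scale for each gene) of the 7 genes in 3 control (blue) and 3 PhenDC3 (red) RNA-seq libraries, with replicate shown by symbol and mean ± SD (n = 3) in black. Baat was at most 0.0724 CPM in control and at least 4.28 CPM with PhenDC3, Slc27a2 went from at least 23.3 to at most 4.41 CPM, and the log2 fold changes of the other 5 genes were smaller, between -0.53 and 0.35.

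The differences of the other 5 genes were far smaller, and 1 of these genes was called higher (18.0% of all tested genes were) and 1 lower (18.7%). In 3 of the 5 the conditions did not overlap, as in 50.6% of all tested genes. Abcd3, the transporter, had 61.4, 52.3 and 55.6 CPM in control and 76.2, 70.0 and 68.8 CPM with PhenDC3. All PhenDC3 libraries lay above all controls, and Abcd3 rose by 0.35 ± 0.11 (SE, edgeR adjusted p = 0.0345). Amacr, the racemase, had 9.59, 10.8 and 9.86 CPM in control and 8.01, 7.07 and 5.81 CPM with PhenDC3. Here all PhenDC3 libraries lay below all controls, and Amacr fell by 0.53 ± 0.17 (adjusted p = 0.0342).

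Both calls were close to the threshold, and each was lost when any 1 of several libraries was left out. The adjusted p of Abcd3 was 0.0972 without control replicate 2, 0.0541 without control replicate 3, and 0.150, 0.0709 and 0.0677 without PhenDC3 replicates 1, 2 and 3, and it was below 0.05 only when control replicate 1 was left out. That of Amacr was 0.0633 and 0.0814 without control replicates 1 and 2, and 0.0767 and 0.121 without PhenDC3 replicates 2 and 3. Over all alternatives the adjusted p ranged from 0.00450 to 0.150 for Abcd3 and from 0.00707 to 0.121 for Amacr, and the direction stayed in each. The lower end of both ranges came from a fit with the replicate number as a block.

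Hsd17b4, Acaa1a and Scp2, which act in β-oxidation itself, did not pass the test. Hsd17b4, which hydrates and dehydrogenates the substrate, had 63.0, 59.7 and 67.5 CPM in control and 54.9, 55.8 and 52.5 CPM with PhenDC3. Its libraries did not overlap between the conditions, as for 25.6% of tested genes in this direction, and the log2 fold change was -0.22 ± 0.10 (adjusted p = 0.121). Acaa1a, a thiolase, had 27.6, 35.0 and 30.3 CPM in control and 39.3, 44.4 and 32.7 CPM with PhenDC3. The lowest PhenDC3 library lay within the control range (0.33 ± 0.15, adjusted p = 0.112). Acaa1a passed only in the alternative fit with the replicate number as a block (0.32, adjusted p = 0.0194).

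Scp2 had 75.2, 69.3 and 67.1 CPM in control and 68.3, 71.9 and 66.0 CPM with PhenDC3, and the conditions overlapped throughout (log2 fold change -0.04 ± 0.10, adjusted p = 0.802). Its direction turned without control replicate 1 (0.0060, adjusted p = 0.974). Acaa1b, a close copy of Acaa1a, was far lower at 0.905, 1.51 and 0.519 CPM in control and 2.26, 3.05 and 1.13 CPM with PhenDC3 (1.13 ± 0.46, adjusted p = 0.0800). How the counting split reads between these copies is not given, so both values are uncertain to that extent.

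Per length, the pathway was expressed at very unequal levels. As CPM per kilobase of merged exon (RPKM), the control means were 24.7 ± 1.46 for Scp2, 23.6 ± 1.47 for Hsd17b4, 15.6 ± 1.87 for Acaa1a, 15.3 ± 1.25 for Abcd3, 10.3 ± 0.272 for Slc27a2, 3.87 ± 0.235 for Amacr and 0.0119 ± 0.0111 for Baat (SD, n = 3). The ranges of Scp2 and Hsd17b4 overlapped, and so did those of Acaa1a and Abcd3. Slc27a2, Amacr and Baat were each separate from their neighbours in the order.

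With PhenDC3 the same genes were the upper 4, at 24.1 ± 1.04 RPKM for Scp2, 20.3 ± 0.625 for Hsd17b4, 19.5 ± 2.96 for Acaa1a and 19.5 ± 1.08 for Abcd3. The ranges of the last 3 of these overlapped in the order given. Amacr (2.67 ± 0.425 RPKM), Baat (1.95 ± 0.820 RPKM) and Slc27a2 (1.61 ± 0.294 RPKM) came last, and each overlapped the next. The mean of Baat thus came to lie between those of the racemase and the synthetase, which had been the more abundant genes in control. The range of Baat overlapped both of theirs, so its place among them is not resolved.

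**Figure D2:**
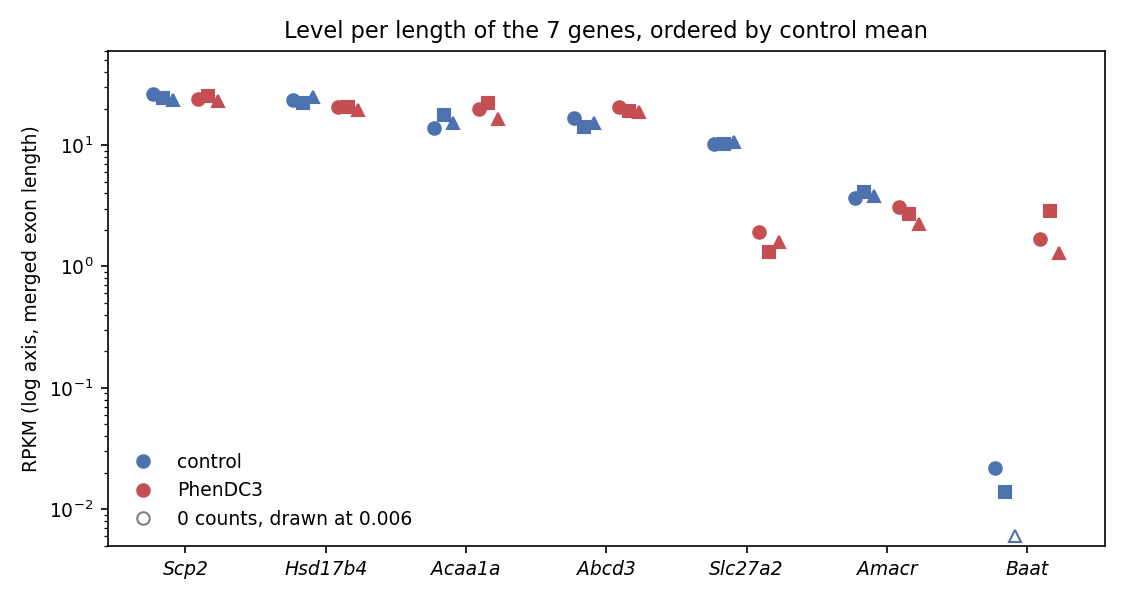
RPKM (log axis) of the 7 genes in 3 control (blue) and 3 PhenDC3 (red) libraries, ordered by control mean, with replicate shown by symbol and an open symbol for a library with 0 counts. Scp2, Hsd17b4, Acaa1a and Abcd3 stayed between 13.9 and 26.3 RPKM in every library, while Slc27a2 fell to at most 1.92 RPKM and Baat reached at least 1.30 RPKM.

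The 7 genes were set beside 135 other genes of lipid handling and the peroxisome. Of 106 that were tested, 18 (17.0%) were called higher and 21 (19.8%) lower, 36.8% in either direction, against 36.8% of all tested genes. The median log2 fold change was 0.03, beside 0.01 over all tested genes. The share of these genes that passed the test was thus that of the genes at large.

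Much of the rest of the bile acid pathway was near absent. Of 14 genes of bile acid synthesis and conjugation, 7 were too low to be tested. Cyp7a1, the rate-limiting enzyme of the classical pathway, had 1 read in all, and Cyp8b1 and Ch25h had none. Slc27a5, the synthetase that reactivates bile acids for Baat, had 20, 15 and 6 reads in control and 7, 8 and 4 with PhenDC3. None of the 7 tested genes rose, and only Hsd3b7, which modifies the sterol ring, passed the test (fell by 0.40 ± 0.14, adjusted p = 0.0472). It passed no longer when any library other than control replicate 3 was left out (adjusted p 0.0956 to 0.182).

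Among 16 genes of fatty acid activation and import, 3 of 13 tested rose and 3 fell (median 0.08). Slc27a3, of the same family as Slc27a2, had 12.6, 12.6 and 13.4 CPM in control and 31.1, 29.6 and 24.6 CPM with PhenDC3, and rose by 1.14 ± 0.13 (adjusted p = 0.000352). Its family members Slc27a1 (0.05 ± 0.14, adjusted p = 0.788) and Slc27a4 (0.32 ± 0.11, adjusted p = 0.0530) did not pass, and Slc27a6 had no read. Acsl6 (0.80) and Acbd5 (0.75), a synthetase and a peroxisomal acyl-CoA binding protein, also rose. Acsl5, a long-chain synthetase, had 15.0, 14.9 and 19.2 CPM in control and 3.37, 4.56 and 5.37 CPM with PhenDC3, a fall by 1.89 ± 0.21 (adjusted p = 0.000264). Acsl3 (-0.76) and Acsl4 (-0.50) fell less. Without control replicate 1 or PhenDC3 replicate 3, Acsl6 did not pass (adjusted p = 0.0603 and 0.0529), and Acsl4 passed only when no library or control replicate 2 was left out (0.0501 to 0.115 otherwise).

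Of 18 other genes of peroxisomal β-oxidation, 2 of 16 tested rose and 3 fell, with a median of 0.28. Acox3, an acyl-CoA oxidase for branched substrates, had 8.80, 9.80 and 13.2 CPM in control and 20.4, 23.5 and 24.8 CPM with PhenDC3 (1.11 ± 0.17, adjusted p = 0.00161). Ehhadh, the L-bifunctional counterpart of Hsd17b4, rose by 0.65, and its adjusted p was 0.0586 without control replicate 2 and 0.0844 and 0.0581 without PhenDC3 replicates 1 and 2. Nudt19 (-1.27), which cleaves CoA, Pecr (-0.93), a peroxisomal reductase, and Ech1 (-0.53), an isomerase, fell.

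Peroxins build the organelle and import its proteins. Of 17 peroxins, 1 of 16 tested rose (Pex3, 0.56) and 2 fell (Pex7, -0.40, and Pex14, -0.31), with a median of -0.06, so that 18.8% were called in either direction beside 36.8% of all tested genes. Pex7 failed the test without any single library other than control replicate 3 (adjusted p 0.0666 to 0.140), and Pex14 without any other than control replicate 2 (0.0730 to 0.144). In α-oxidation and ether lipid synthesis, 1 of 7 tested genes passed, Gnpat, the first enzyme of ether lipid synthesis, which fell by 0.46. Among other peroxisomal proteins, 1 of 16 tested rose (Idh1, 0.55) and 5 fell, most of all Ephx2 (-1.38), an epoxide hydrolase, Pipox (-0.98), which oxidizes pipecolic acid and sarcosine, and Prdx5 (-0.70), a peroxiredoxin. Without PhenDC3 replicate 1 the adjusted p of Idh1 was 0.0581.

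Of 19 genes listed under mitochondrial β-oxidation, 5 of 18 tested rose and 2 fell (median -0.13). Slc25a20, the carnitine carrier, had 66.7, 60.3 and 51.2 CPM in control and 178, 209 and 174 CPM with PhenDC3 (1.65 ± 0.14, adjusted p = 8.86e-05). Cpt1c (1.28) and Acaa2 (0.86), a mitochondrial thiolase, also rose, while Echs1 (-0.46) and Hadhb (-0.40) fell. The adjusted p of Echs1 was 0.0564 without PhenDC3 replicate 1, and that of Hadhb was 0.142 without control replicate 1 and 0.0736, 0.142 and 0.103 without PhenDC3 replicates 1, 2 and 3.

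Nuclear receptors and PPAR targets, which include known regulators of peroxisomal genes, had 7 of 15 tested genes higher (46.7%, beside 18.0% of all tested genes) and 4 lower (26.7%, beside 18.7%), with a median of 0.45. Without control replicate 1, 4 were called higher. Vnn1, a pantetheinase, had 0.832, 0.957 and 0.648 CPM in control and 5.17, 5.23 and 5.26 CPM with PhenDC3 (2.68 ± 0.23). Nr1h3 (1.35), the receptor LXRα, and Rxra (1.09) rose, and Ppargc1b (-1.44), Acot1 (-1.24) and Angptl4 (-1.23) fell. Ppara itself was low, at 0.365 to 0.615 CPM in control and 0.690 to 0.836 CPM with PhenDC3, and did not pass (0.65 ± 0.35, adjusted p = 0.165). The bile acid receptor Nr1h4 had 4 reads in all, and Nr0b2, its target, at most 2 reads in a library. The adjusted p of Nr1h3 was 0.0649 without control replicate 1 and 0.0667 without PhenDC3 replicate 2.

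**Figure D3:**
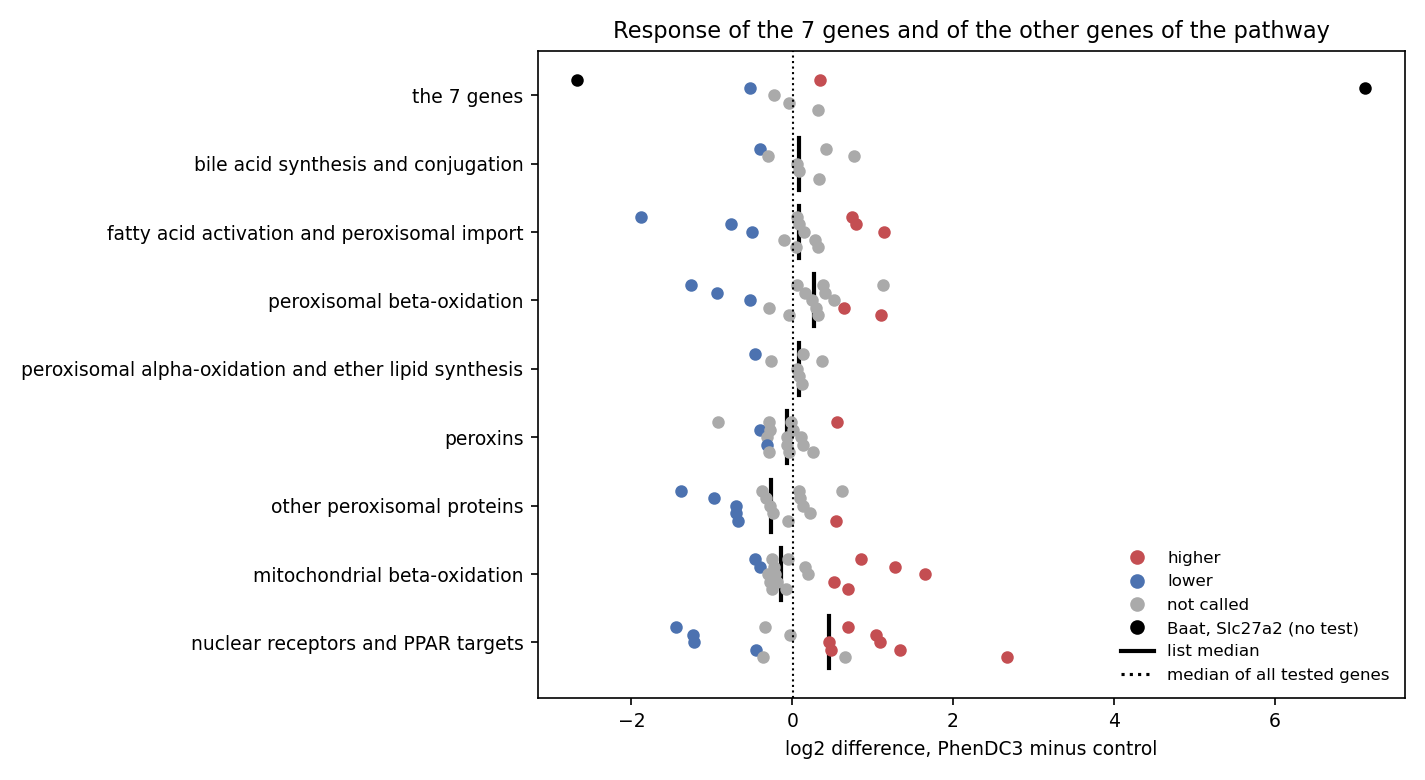
Log2 difference of PhenDC3 minus control for the 7 genes (black where no test applies) and for the tested genes of 8 lists, with red for higher, blue for lower and grey for not called, a bar at each list median and a dotted line at the median of all tested genes (0.01). Baat (7.13) and Slc27a2 (-2.67) lie outside the range of every list, which runs from -1.89 to 2.68. Both genes were chosen by this difference, so their place outside the lists is a description only.

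SNS-seq gave a readout that had no part in choosing the genes. Peaks within 10 kb of the 7 genes numbered 30, 24 and 22 in the control lists and 28 and 27 with PhenDC3. Per 10000 peaks of each list these were 2.48, 2.96 and 2.77 in control and 1.94 and 2.64 with PhenDC3. The conditions overlapped (2.74 ± 0.239, n = 3, against 2.29 ± 0.490, n = 2, exact permutation test, two-sided p = 0.4), and 3 against 2 samples cannot give a p below 0.2. Reads per peak are not in the lists used here, and the depth of these samples is unknown.

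Baat was the only 1 of the 7 genes without any control peak within 10 kb, as were 14.3% of 23952 genes. PhenDC3 replicate 2 alone had a peak there, centred at -1869 bp from the gene start, with a fold enrichment of 6.14 over the RNase-treated library. The peak (chr4:49509702-49509866, shown on the minus strand, GRCm38.p6, intergenic) is given with the predicted G4 next to it (chr4:49509969-49510003, minus strand), since it is the single origin signal at this gene. Capitals mark runs of at least 3 G in both and also of at least 3 C in the peak.
Baat peak: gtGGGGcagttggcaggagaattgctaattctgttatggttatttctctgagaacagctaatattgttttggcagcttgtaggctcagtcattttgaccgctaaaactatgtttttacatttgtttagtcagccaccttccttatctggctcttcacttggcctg
Baat predicted G4: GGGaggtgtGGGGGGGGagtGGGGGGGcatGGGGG
The peak itself has 41.8% G and C and a single run of G, and the centre of the G4 lies 202 bp from that of the peak.

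Over the 7 genes the peaks merged into 53 regions, 26 of which had a peak in 1 sample only. The other 27 were taken as origins. With at least 2 control and both PhenDC3 samples, 12 were common. With both PhenDC3 samples and no control, 5 were new, and with at least 2 controls and no PhenDC3 sample, 3 were suppressed. The remaining 7 had other combinations. Over all 101678 origins these shares were 32.9% common, 18.3% new and 18.4% suppressed. A predicted G4 lay within 500 bp of the centre in 20 of the 27, beside 66.2% of all origins.

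Slc27a2 had 6 of these origins. The strongest lay 39.0 kb beyond its start, between the end of the gene and Hdc. Its fold enrichments were 15.4, 7.92 and 19.8 in control and 5.94 and 5.09 with PhenDC3. Both PhenDC3 values lay below all controls. An intronic origin at 14.2 kb was common without such an order (7.25, 4.50 and 3.41 against 4.31 and 2.79), and another at 15.1 kb was new (6.63 and 4.21). Over the promoter shown above, control replicates 1 and 2 reached 5.28 and 7.85 and PhenDC3 replicate 1 reached 4.21, and no peak was listed in the other two samples.

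Scp2, the longest of the genes, had 8 origins, all with a predicted G4. The origin at 17.7 kb had fold enrichments of 7.54, 8.07 and 7.62 in control and 3.47 and 4.45 with PhenDC3, again below all controls. That at 30.2 kb was suppressed, with 9.33, 3.82 and 14.2 in the controls. Amacr had a single origin, at 6.9 kb (6.66, 4.83 and 6.65 against 3.75 and 3.35), which followed the same order. At Abcd3 the single origin was new and lay 3.9 kb before the start (7.42 and 4.32). Nearer the start, control replicate 1 had a peak at -122 bp (6.23). Control replicate 2 had peaks at -355 bp (4.53) and 701 bp (4.45). Neither control replicate 3 nor a PhenDC3 sample had a peak at these places. As these peaks did not overlap one another, none was taken as an origin.

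Acaa1a had 7 origins, of which 2 were new, 1 of them 0.3 kb past the start (3.86 and 4.78). Its common origin at 8.8 kb had higher fold enrichments with PhenDC3 (6.47 and 3.96) than in any control (3.80, 3.39 and 3.87). Hsd17b4 had 4 origins, and the common origin 5.6 kb before its start was lower with PhenDC3 (7.41, 5.29 and 6.97 against 5.08 and 4.16). Of the 10 regions with a peak in all 5 samples in or within 10 kb of these genes, 5 were lower with PhenDC3 without overlap and 1 was higher. These shares stand beside 34.4% and 8.29% of 22677 such regions in the genome. The lower region counted to Acaa1a overlapped a coding exon of Myd88. The authors name 1 RNase-treated sample as the control, while the series holds 1 per condition. If each condition was scaled to its own, a shift in fold enrichment and a difference between those libraries cannot be told apart.

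The predicted G4 nearest to the centre of some of these origins are shown as examples of a common, a new and a suppressed origin, each on the strand that carries G, with runs of at least 3 G in capitals. They come from Slc27a2 at 39.0 kb (common, chr2:126592496-126592527, minus strand, intergenic) and 15.1 kb (new, chr2:126568280-126568300, minus, intron), and from Scp2 at 30.2 kb (suppressed, chr4:108114488-108114580, plus, intron).
Slc27a2 common: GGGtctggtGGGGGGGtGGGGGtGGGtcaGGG
Slc27a2 new: GGGaGGGaGGGaGGGtaaGGG
Scp2 suppressed: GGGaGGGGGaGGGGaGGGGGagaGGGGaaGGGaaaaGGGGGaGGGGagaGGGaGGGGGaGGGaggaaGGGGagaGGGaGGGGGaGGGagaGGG
A match of letters is not a measured structure. Over all origins, a predicted G4 lay within 500 bp of the centre in 73.2% of common, 75.0% of new and 42.8% of suppressed origins. Most suppressed origins thus had none, unlike the example shown.

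**Figure D4:**
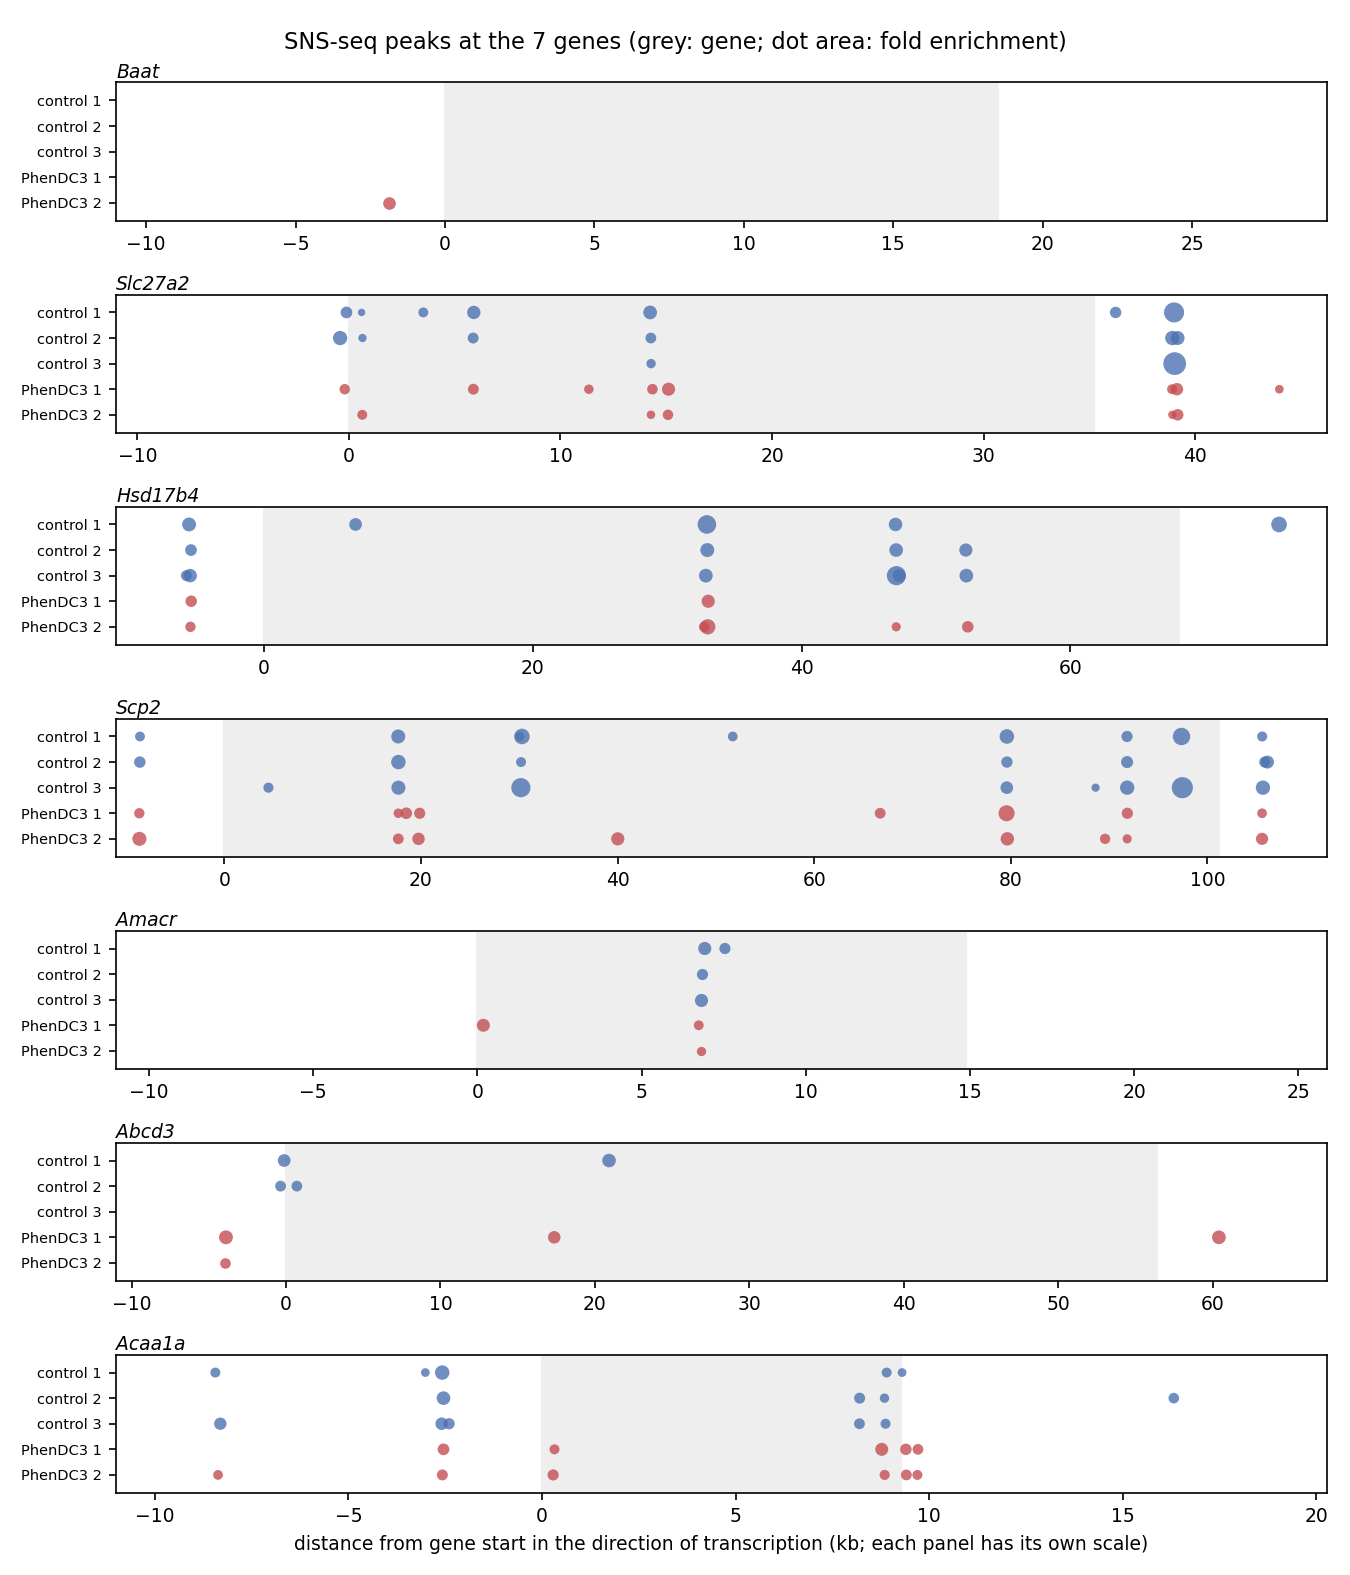
SNS-seq peaks by distance from the start of each of the 7 genes (kb, own scale per gene) in 3 control (blue) and 2 PhenDC3 (red) samples, with the gene in grey and dot area proportional to fold enrichment. Baat has 1 peak in 1 PhenDC3 sample, whereas the largest dot is the peak of control replicate 3 at 39.0 kb from the start of Slc27a2 (19.8).

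**Figure D5:**
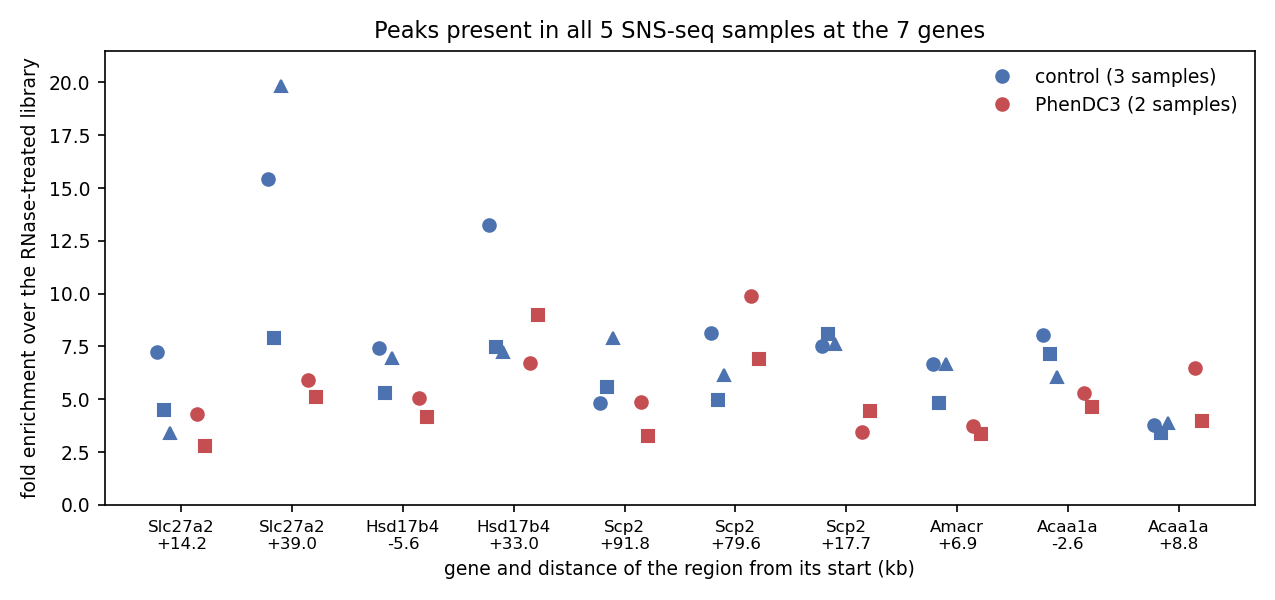
Fold enrichment over the RNase-treated library (linear axis from 0) at the 10 regions with a peak in all 5 SNS-seq samples, for 3 control (blue) and 2 PhenDC3 (red) samples. Both PhenDC3 values lie below all 3 control values at 5 regions, in or within 10 kb of Slc27a2, Hsd17b4, Scp2, Amacr and Acaa1a, and above them at 1 region of Acaa1a. The lower region counted to Acaa1a overlaps a coding exon of Myd88.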

How the data were processed

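RNA-seq counts were deposited raw. The authors mapped stranded mRNA libraries with TopHat2 2.1.1 and Bowtie2 2.2.9 and counted reads per gene with HTSeq 0.6.1p1, with an annotation, build and strand setting that are not given in the sources used here. The deposited SNS-seq lists hold, per peak, the fold ratio to the RNase-treated library and the −log10 p that the authors obtained with MACS2 2.1.0 in each replicate on mm10, after a filter for SICER regions, and these values were read as they stand. The deposited score of a peak, which the authors' caller derived from its p, was not used. Peaks on the mitochondrial chromosome were left out. The authors' fold changes, p-values and pseudo-counts were not used.

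Genes were compared with edgeR 4.0.16 (R 4.3.3; robust quasi-likelihood test with RLE factors and filterByExpr, Benjamini-Hochberg over 13972 genes, adjusted p of at most 0.05), which was tested on simulated data. SE is the log2 fold change divided by the square root of F. CPM used effective library sizes, and RPKM the merged exon length of RefSeq (GRCm38.p6), where 23953 of 24079 genes were matched. Likeness between genes used log2(CPM + 0.5). SNS-seq rates were compared with an exact permutation test over samples. From each list, the 3 largest rises and 3 largest falls among called genes with a mean of at least 1 CPM were named, with the genes of the Slc27a, Acaa1 and Acnat families and the nearest genes of Baat and Slc27a2. Ppara, Nr1h4, Nr0b2, Cyp7a1, Cyp8b1, Ch25h, Gata6, Amn, Cubn, Dab2 and the markers at or near 0 were named for their role after their values were seen. The 7 genes, the lists and the tests were chosen with earlier results of these data known. The alternatives were TMM, DESeq2 1.42.0, other filters, a replicate block, each library left out, other windows and thresholds for peaks, and transcript length. Some items are not reported here.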

Additional observations from a re-analysis of the deposited data

How the results depend on the processing

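Slc27a2 and Hsd17b4 kept their direction under every alternative run, and so did Abcd3, Amacr and Acaa1a. Without single replicates the log2 fold change of Baat was 6.62 to 7.88, that of Slc27a2 -2.81 to -2.55, of Abcd3 0.29 to 0.41, of Amacr -0.64 to -0.42, and of Scp2 -0.078 to 0.0060, its direction turned without control replicate 1. Genes called numbered 1709 to 2689 higher and 1623 to 2727 lower without single libraries (1623 without PhenDC3 replicate 1), against 2518 and 2617. Calls among the other genes of the pathway were 13 to 19 higher and 14 to 22 lower. With the replicate number as a block, 3797 genes were called higher and 3692 lower, and Acaa1a passed (0.32, adjusted p = 0.0194). The deviations of same-numbered libraries correlated at 0.098, 0.627 and 0.486, and every library correlated best with its own number in the other condition. The labels do not say what libraries of the same number share, so the numbers were not taken as pairs. If they are pairs, the p-values of the main fit leave that pairing out. With the longest transcript as length, Scp2 reached 26.3 RPKM in control in place of 24.7. The SNS-seq difference of -0.446 peaks per 10000 was 0.0037 within 2 kb of gene starts, where its direction turned (exact permutation p = 1.0), and -0.793 to -0.0995 without single samples. For the genes named from the lists, 42 calls were lost among the alternatives, 39 of them without a single library, and no direction turned. Baat has 3 control reads, and the size of its rise is limited by that depth. The exact test of the SNS-seq rates cannot pass the threshold with 2 PhenDC3 samples.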
